A study of Homo sapiens with 12 samples.

Results

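The expression of 52 genes that drive or mark the cell cycle was followed in SNU449 cells with and without Axl, each as naïve control and as Rego-resistant cells. The genes were chosen by name as known cell cycle genes, by a rule that uses no measured value, although earlier results of these data were known when the list was made. They comprise proliferation markers, cyclins, cyclin-dependent kinases (CDKs) and their inhibitors, the RB1 and E2F factors, MYC, replication factors and the machinery of mitosis. Of these, 49 had values among the 15601 genes of the table that covers all libraries, and the same 49 in each of the 6 tables that cover a pair of groups. CCND2, CDKN2A and CDKN2B were not analysed here. The members were well covered, with mean normalized counts by the authors between 20.3 and 6770 and a median of 375, against 57.1 for all genes, and 47 of the 49 had at least 50.

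A cell enters the cycle when D-type cyclins, induced by growth factor signals, activate CDK4 and CDK6, which phosphorylate RB1 and release the E2F factors. E2F factors then induce cyclin E and the genes of DNA replication, and later in the cycle the MuvB, B-MYB and FOXM1 proteins induce the genes of mitosis, whereas CDK inhibitors and the DREAM complex hold cells in a resting state. In hepatocellular carcinoma (HCC), RNA of these genes is widely used as a readout of proliferation, and Rego, an inhibitor of several receptor and RAF kinases, acts upstream of cyclin D1.

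SNU449 is a human HCC cell line of mesenchymal-like phenotype, and SNU449-Axl- cells are derivatives in which the receptor tyrosine kinase Axl was removed by CRISPR/Cas9. Whether SNU449-Axl- cells are a clone or a pool is not given in the sources used here. Resistant cells of either genotype had been grown in stepwise increasing Rego up to 2 x IC50 and were kept under the drug, while control cells were naïve. Each of the 4 groups holds 3 QuantSeq libraries, which read the 3′ ends of transcripts, and the libraries are technical triplicates of 1 cell population. All p-values therefore cover the spread between libraries of a population, and a difference between genotypes or treatments cannot be told apart from a difference between populations. Since RNA was taken from bulk cultures, fewer cells in a phase of the cycle and less RNA per cell cannot be told apart either.

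AXL, checked first, had log2 levels of 9.48 to 9.88 in SNU449 control cells and of 5.09 to 5.75 in SNU449-Axl- control cells, and fell by 4.29 ± 0.24 (SE). It fell by 4.52 ± 0.24 between the Rego-resistant groups, so that RNA levels separate the genotypes as labelled. The edited part of the gene is not given in the sources used here, and 3′ reads need not cover it. All 9 mesenchymal markers were listed, led by VIM at an authors' mean normalized count of 18945, whereas 7 of 14 hepatocyte markers were listed, with a summed count of 220.4 and without ALB. Of the 6 leukocyte markers 3 were listed, none above 6.19, of the 7 epithelial markers 3, and of the 5 endothelial markers none. Log2 level means log2 of the deposited library value plus 1, and a library value is 2 raised to the variance-stabilized expression after removal of the preparation date. Such levels compress the differences of weakly expressed genes. Called means an adjusted p under 0.05 (limma, with p-values adjusted by Benjamini-Hochberg across the 15601 genes), and each difference is given with its SE from that fit and rests on 3 libraries per group.

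Promoters of the called members are shown because many cell cycle genes are controlled from short motifs close to the start of transcription. Known ones are the cell cycle genes homology region (CHR, TTTGAA) and the CCAAT box, which are read by the DREAM and MuvB complexes and by NF-Y, and E2F sites, of which the forms TTTCGCG and TTCCCGC were searched together with the E box CACGTG and the CHR variant TTCGAA. The following 6 stretches are the called members with the largest differences between Rego-resistant and control cells that have an entry in the RefSeq promoter table (GRCh38.p14). Each runs 5′ to 3′ on the strand of the gene over the 150 bases that end just before the annotated start, with every motif on either strand in capitals, so that the box also reads ATTGG and the first E2F form also reads CGCGAAA, from the opposite strand.
CCNB2: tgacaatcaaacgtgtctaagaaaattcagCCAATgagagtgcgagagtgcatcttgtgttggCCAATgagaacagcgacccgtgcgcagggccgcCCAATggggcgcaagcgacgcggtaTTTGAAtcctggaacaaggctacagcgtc
CDC20: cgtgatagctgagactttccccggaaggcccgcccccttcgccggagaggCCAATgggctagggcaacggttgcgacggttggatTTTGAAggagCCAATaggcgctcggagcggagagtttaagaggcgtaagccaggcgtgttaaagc
BUB1B: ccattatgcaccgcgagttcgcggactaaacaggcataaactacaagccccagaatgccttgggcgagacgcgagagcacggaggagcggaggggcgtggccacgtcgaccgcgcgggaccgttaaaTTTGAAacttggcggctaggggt
MCM6: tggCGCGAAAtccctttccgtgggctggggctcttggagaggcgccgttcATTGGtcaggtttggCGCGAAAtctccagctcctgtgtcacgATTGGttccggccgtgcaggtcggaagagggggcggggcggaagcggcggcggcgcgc
MCM7: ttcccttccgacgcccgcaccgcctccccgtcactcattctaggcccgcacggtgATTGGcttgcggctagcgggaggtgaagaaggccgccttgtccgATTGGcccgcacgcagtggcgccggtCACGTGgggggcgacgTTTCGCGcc
CCND3: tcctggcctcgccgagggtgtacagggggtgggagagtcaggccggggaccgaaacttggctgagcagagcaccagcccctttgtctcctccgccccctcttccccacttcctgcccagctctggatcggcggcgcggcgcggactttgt

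These stretches lie at chr15:59104996-59105145 on the plus strand for CCNB2, chr1:43358831-43358980 on the plus strand for CDC20 and chr15:40160919-40161068 on the plus strand for BUB1B. Those of MCM6 (chr2:135876444-135876593), MCM7 (chr7:100101398-100101547) and CCND3 (chr6:42048689-42048838) lie on the minus strand. For CCNB2, BUB1B, MCM7 and CCND3, the GENCODE gene starts further upstream than the RefSeq start used, so that the stretch also holds transcribed sequence of other transcripts. The mitotic promoters of CCNB2, CDC20 and BUB1B each hold a TTTGAA, with its first base at -29, -65 and -23 from the start. Replication genes MCM6 and MCM7 hold TTTCGCG and CCAAT instead, and the stretch of CCND3 holds none of the motifs.

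Over the whole window of 300 bases, 250 before and 50 after the start, 38 of the 49 members had an entry in the table. TTTGAA was found in 12 of them (31.6%), against 15.4% of all 27303 promoters and 9.69% of the 10800 promoters of genes tested. CCAAT was found in 25 members (65.8%) against 35.7% and 37%, and TTTCGCG in 9 members (23.7%) against 1.35% and 2.43% of the same sets. By role, TTTGAA was present in 3 of 7 promoters of mitotic cyclins and kinases and in 1 of 9 promoters of replication genes. A match is a description of letters in this window and not a binding site.

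Rego resistance came with small differences in most cell cycle genes, and few of them passed the test. In SNU449 cells, 4 of the 49 members were called (8.16%), against 7.81% of all genes tested. CCND1 rose, and CCND3, MCM6 and CCNB1 fell. In SNU449-Axl- cells, 6 of the 49 members were called (12.2%), against 4.35% of all genes, and all 6, namely MCM7, CCNB2, PLK1, BUB1, BUB1B and CDC20, fell. For calls downward alone, the members' counts were 3 of 49 in SNU449 and 6 of 49 in SNU449-Axl- cells, where 3.5% and 1.81% of all genes were called lower. Upward, they were 1 and 0, where 4.31% and 2.54% of all genes were called. No member was called in both backgrounds, but so few calls leave little room for a shared one. The share of all genes called in both was not counted. The Rego effect was called different between the backgrounds for 1 of 49 members, against 5.87% of all genes (limma interaction).

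The differences were mostly below 0. In SNU449 cells 34 of 49 members were lower in the Rego-resistant group, with a median log2 difference of -0.25, and in SNU449-Axl- cells 40 of 49, with a median of -0.35. Over all genes tested, the medians were -0.0001 and 0.0066. Between these comparisons, which share no library, 29 members lay below 0 in both, 4 above 0 in both and 16 on opposite sides. The members are not independent of each other, since many lay high or low together in single libraries, as described below. Of all 15601 genes tested, 7813 lay below 0 in SNU449 and 7643 in SNU449-Axl- cells. How all genes split over both comparisons was not counted. The median 95% confidence interval of a member reached 0.47 to either side of its difference, and 42 members in SNU449 and 30 in SNU449-Axl- cells differed by less than 0.5. When libraries were centred on the 32 spike-in RNAs, every gene moved up by 0.05 in the SNU449 comparison and by 0.14 in the SNU449-Axl- comparison. The median difference was then -0.20 and -0.21, and 2 members, CCND1 and MCM6, kept their calls in SNU449 cells and none of the 6 in SNU449-Axl- cells did, where the adjusted p of the 6 genes lay between 0.0724 and 0.130 (limma). Without the replicate number as a block, 10 members were called in SNU449-Axl- cells, adding MKI67, AURKA, AURKB and KIF11. The means of the replicate numbers are already removed from the deposited values. A fit without the block therefore understates the spread, its p-values are too small, and these added calls are no evidence of a fall.

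Some markers of cell state were called in the same comparisons. In SNU449 cells, KRT7, a keratin of simple epithelia, rose by 4.47 ± 0.43 (adjusted p = 2.5e-06). The mesenchymal markers FN1 and ZEB2 fell by 2.24 ± 0.36 and 1.31 ± 0.20 (adjusted p = 0.000686 and 0.000453). Called there were 1 of 3 epithelial (33.3%), 2 of 9 mesenchymal (22.2%) and 0 of 7 hepatocyte markers, against 7.81% of all genes. The epithelial markers ranged from -0.10 to 4.47, and 3 of the 9 mesenchymal markers lay above 0. In SNU449-Axl- cells, FN1 rose by 2.47 ± 0.36 (adjusted p = 0.000544) and SNAI2 fell by 0.83 ± 0.23 (adjusted p = 0.0483). The fibrinogen genes FGB and FGG, made by hepatocytes, rose by 2.49 ± 0.38 and 1.35 ± 0.30 (adjusted p = 0.000805 and 0.0147). Here 2 of 9 mesenchymal (22.2%), 2 of 7 hepatocyte (28.6%) and 0 of 3 epithelial markers were called, against 4.35% of all genes. Of the 9 mesenchymal markers 4 lay above 0 and 5 below, and of the 7 hepatocyte markers 5 above and 2 below. Summed library values of the epithelial markers were 863 to 1339 in SNU449 control, 1645 to 2222 in SNU449 Rego-resistant, 1316 to 2203 in SNU449-Axl- control and 1953 to 2770 in SNU449-Axl- Rego-resistant cells. Those of the hepatocyte markers were 192 to 262, 236 to 255, 266 to 338 and 486 to 981, and those of the mesenchymal markers 19161 to 28034, 17096 to 30837, 20118 to 27409 and 18920 to 21598, in the same order. On this scale nearly absent genes still hold a value. The 3 listed leukocyte markers, at mean normalized counts of at most 6.19, summed to 71 to 85 in SNU449 control libraries. VIM held 18945 of the summed mean normalized count of 22964.5 of the mesenchymal markers, so that their sums mostly follow VIM. The part of the markers in the differences of the cell cycle genes was not tested.

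**Figure D1:**
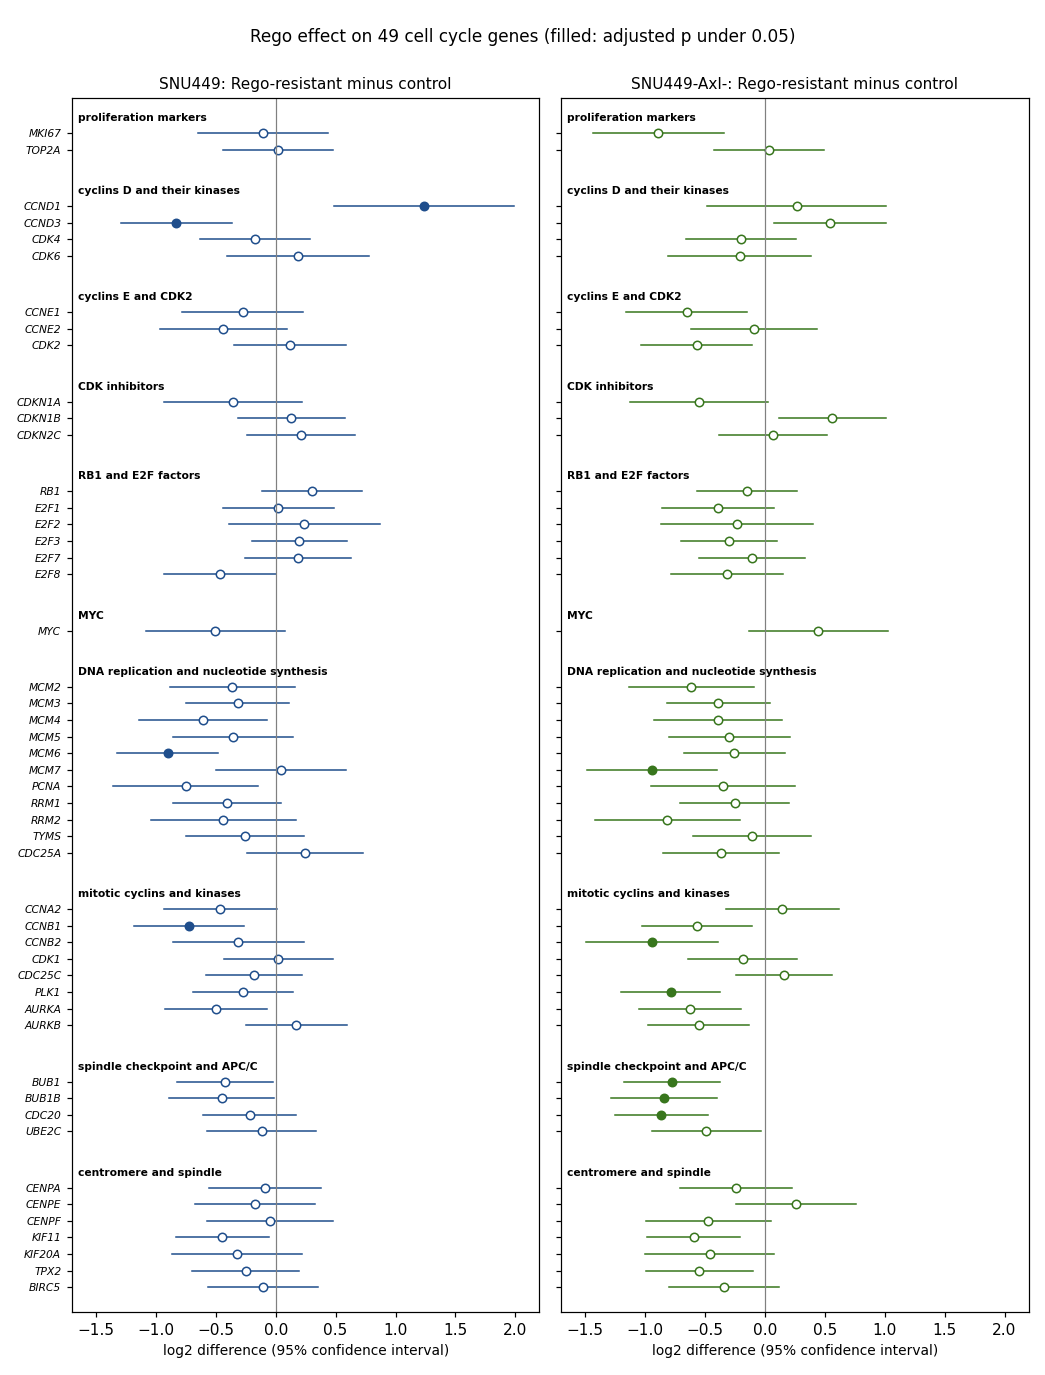
Log2 difference between Rego-resistant and control cells (horizontal axis) for the 49 members (vertical axis, grouped by role) in SNU449 (left, blue) and SNU449-Axl- cells (right, green). Points are the fitted differences, lines their 95% confidence intervals, and filled points have an adjusted p under 0.05. Filled points are CCND1, CCND3, MCM6 and CCNB1 on the left and MCM7, CCNB2, PLK1, BUB1, BUB1B and CDC20 on the right, and most open points lie left of 0.

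The D-type cyclins, which link growth factor signals to the cycle, held 2 of the 4 calls in SNU449 cells. CCND1 (ENSG00000110092.4, chr11:69641156-69654474, plus strand, GRCh38 by GENCODE) encodes cyclin D1. Its log2 levels were 7.71, 8.91 and 7.44 in the control libraries and 9.31, 9.10 and 9.38 in the Rego-resistant libraries of SNU449 cells. All Rego-resistant libraries were higher, although control replicate 2 lay close to them. CCND1 rose by 1.24 ± 0.36 (SE), a fold of 2.36 on this scale (adjusted p = 0.0391). The call was lost without any of 7 libraries, namely SNU449 control replicates 1 and 3, all 3 SNU449 Rego-resistant replicates, SNU449-Axl- control replicate 2 and SNU449-Axl- Rego-resistant replicate 1, with adjusted p between 0.0546 and 0.211. It was also lost among genes with a mean normalized count of at least 50 (adjusted p = 0.0579).

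In SNU449-Axl- cells CCND1 was at 9.35, 9.51 and 9.09 in the control libraries and at 9.81, 8.66 and 10.27 in the Rego-resistant libraries. The groups overlapped, and the difference was 0.26 ± 0.36 (adjusted p = 0.755). Its 95% confidence interval, -0.48 to 1.01, does not settle whether the gene responded there. SNU449-Axl- control cells and SNU449 Rego-resistant cells thus had similar levels, with means of 9.32 and 9.26.

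Cyclin D3, encoded by CCND3 (ENSG00000112576.13, chr6:41934934-42050357, minus strand), moved the other way in SNU449 cells. Its levels were 8.45, 8.45 and 8.66 in control and 7.67, 7.71 and 7.69 in Rego-resistant cells. The 3 Rego-resistant libraries lay together, and all were below the control libraries. CCND3 fell by 0.83 ± 0.22 (adjusted p = 0.0269). This call was lost without any 1 of the 6 SNU449 libraries, with adjusted p between 0.0560 and 0.106, and with centring on the spike-in RNAs (adjusted p = 0.0747).

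In SNU449-Axl- cells CCND3 was at 7.83, 7.70 and 7.03 in control and at 7.85, 7.93 and 8.41 in Rego-resistant cells. Here all Rego-resistant libraries were higher, the closest pair being control replicate 1 and Rego-resistant replicate 1, and the difference of 0.55 ± 0.22 did not pass the test (adjusted p = 0.182). The Rego effect on CCND3 differed between the backgrounds by -1.37 ± 0.31 (interaction, adjusted p = 0.0132). It was the 1 member of 49 called in this comparison, in which 5.87% of all genes were called, 2.95% above and 2.92% below 0. The interaction was lost without SNU449-Axl- Rego-resistant replicate 3 (-1.14, adjusted p = 0.0534) and was called without each of the other 11 libraries. For CCND1 the same difference between effects was 0.97 ± 0.50 (adjusted p = 0.308).

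CDK4 and CDK6, the kinase partners of the D cyclins, showed no call. The difference was -0.17 ± 0.22 for CDK4 and 0.18 ± 0.28 for CDK6 in SNU449 cells, and -0.20 ± 0.22 and -0.21 ± 0.28 in SNU449-Axl- cells, with overlapping libraries throughout.

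**Figure D2:**
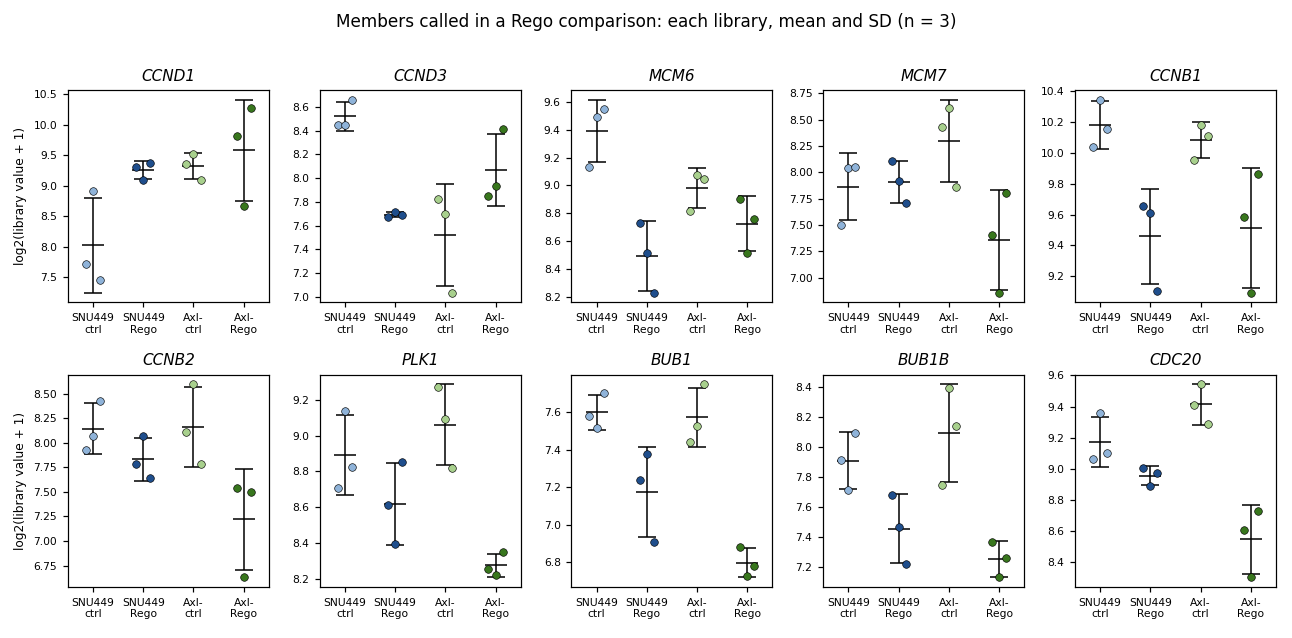
Log2 level (vertical axis, scaled per gene) of the 10 members called in a Rego comparison, in the 4 groups of libraries (horizontal axis). Points are single libraries, and black lines are the mean and SD of 3 libraries. CCND1 is lowest in SNU449 control cells and CCND3 highest there, while BUB1, BUB1B, CDC20 and PLK1 are lowest on average in Rego-resistant SNU449-Axl- cells.

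Cyclin E genes, which act with CDK2 at the entry into S phase, were not called. CCNE1 differed by -0.28 ± 0.24 in SNU449 cells. In SNU449-Axl- cells its levels were 6.77, 6.99 and 6.74 in control and 6.66, 5.91 and 5.98 in Rego-resistant libraries, with no overlap and a difference of -0.65 ± 0.24 (adjusted p = 0.139). CCNE2 differed by -0.44 ± 0.25 in SNU449 and by -0.09 ± 0.25 in SNU449-Axl- cells. For CDK2 the differences were 0.12 ± 0.22 and -0.57 ± 0.22.

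None of the 3 CDK inhibitors with values was called. CDKN1A, encoding p21, a target of p53, was at 7.83, 8.42 and 7.48 in control and 7.35, 7.61 and 7.69 in Rego-resistant SNU449 libraries, which overlapped (-0.36 ± 0.27, adjusted p = 0.498). In SNU449-Axl- cells it was at 7.36, 7.51 and 7.29 in control and at 7.14, 6.15 and 7.22 in Rego-resistant libraries (-0.55 ± 0.27, adjusted p = 0.297). Those groups did not overlap, and Rego-resistant replicate 2 was far below the other libraries. CDKN1B, encoding p27, differed by 0.13 ± 0.21 in SNU449 cells. In SNU449-Axl- cells it was at 7.02, 7.0 and 7.17 in control and at 7.42, 8.03 and 7.43 in Rego-resistant libraries, all of them higher, with a difference of 0.56 ± 0.21 (adjusted p = 0.151). CDKN2C, encoding the CDK4 and CDK6 inhibitor p18, differed by 0.21 ± 0.21 and 0.06 ± 0.21.

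Little moved at RB1 and the E2F factors. RB1 differed by 0.30 ± 0.20 in SNU449 and by -0.15 ± 0.20 in SNU449-Axl- cells, and E2F1, an activator of S phase genes, by 0.02 ± 0.22 and -0.39 ± 0.22. In SNU449 cells 5 of these 6 genes lay above 0 and in SNU449-Axl- cells all 6 below 0, with medians of 0.19 and -0.27. E2F8, a late repressor of E2F targets, had the lowest value of them in SNU449 cells (-0.47 ± 0.22, adjusted p = 0.235). None of these differences was called.

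MYC, the transcription factor that promotes growth and entry into the cycle, was at 7.30, 7.32 and 7.73 in control and at 7.39, 6.69 and 6.77 in Rego-resistant SNU449 libraries (-0.50 ± 0.28, adjusted p = 0.314). In SNU449-Axl- cells the levels were 6.69, 6.66 and 7.29 in control and 7.22, 7.93 and 6.82 in Rego-resistant libraries (0.45 ± 0.28, adjusted p = 0.419). The groups overlapped in both backgrounds. The difference between these effects was -0.95 ± 0.39 and did not pass the test (adjusted p = 0.175).

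Replication genes lay below 0 in both backgrounds, at 9 of 11 in SNU449 and 11 of 11 in SNU449-Axl- cells, with medians of -0.36 and -0.37. A single gene was called in each. MCM6 (ENSG00000076003.5, chr2:135839626-135876443, minus strand), a subunit of the MCM helicase that unwinds DNA at the fork, was at 9.13, 9.49 and 9.55 in control and at 8.73, 8.51 and 8.23 in Rego-resistant SNU449 libraries. All Rego-resistant libraries were lower, and MCM6 fell by 0.90 ± 0.20 (adjusted p = 0.00815). The call was lost without SNU449 control replicate 2 (adjusted p = 0.0546) and without SNU449 Rego-resistant replicate 3 (adjusted p = 0.0635). In SNU449-Axl- cells MCM6 differed by -0.25 ± 0.20 (adjusted p = 0.542), and the difference between these effects was -0.65 ± 0.28 (adjusted p = 0.208).

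MCM7 (ENSG00000166508.18, chr7:100092728-100101940, minus strand), another subunit of the same helicase, was called in the other background. Its levels in SNU449-Axl- cells were 8.43, 8.61 and 7.86 in control and 7.40, 6.86 and 7.81 in Rego-resistant libraries. The groups did not overlap, but control replicate 3 and Rego-resistant replicate 3 lay close to each other. MCM7 fell by 0.94 ± 0.26 (adjusted p = 0.0444), and differed by 0.05 ± 0.26 in SNU449 cells. Its call was lost without any of 7 libraries, namely SNU449 control replicate 2, SNU449 Rego-resistant replicates 1 and 2, SNU449-Axl- control replicates 1 and 2 and SNU449-Axl- Rego-resistant replicates 1 and 2 (adjusted p between 0.0534 and 0.327). Without the last of these the difference was -0.61. It was lost too among genes with a mean normalized count of at least 50 (adjusted p = 0.0517). The effects on MCM7 in the backgrounds differed by 0.99 ± 0.36, which did not pass the test (adjusted p = 0.127).

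The other 4 MCM genes differed by -0.61 to -0.32 in SNU449 and by -0.61 to -0.30 in SNU449-Axl- cells. PCNA, the sliding clamp of DNA polymerases, was at 9.75, 10.48 and 10.54 in control and at 10.09, 9.44 and 8.99 in Rego-resistant SNU449 libraries. Replicate 1 of each group fell among the libraries of the other, and the difference of -0.75 ± 0.29 was the largest in this comparison that was not called (adjusted p = 0.128). RRM2, the regulated subunit of ribonucleotide reductase, differed by -0.44 ± 0.29 in SNU449 and by -0.81 ± 0.29 in SNU449-Axl- cells (adjusted p = 0.122).

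In the mitotic cyclins and kinases, 6 of 8 genes lay below 0 in each background, with medians of -0.29 and -0.56. CCNB1 (ENSG00000134057.15, chr5:69167135-69178245, plus strand) encodes cyclin B1, which drives entry into mitosis with CDK1. It was at 10.04, 10.35 and 10.16 in control and at 9.66, 9.61 and 9.10 in Rego-resistant SNU449 libraries, all of them lower. CCNB1 fell by 0.72 ± 0.22 and lay at the threshold (adjusted p = 0.0499). The call was lost without any of the 6 SNU449 libraries, SNU449-Axl- control replicate 2 or 3 or SNU449-Axl- Rego-resistant replicate 1 (adjusted p between 0.0529 and 0.278), with centring on the spike-in RNAs (0.124), in the table of the pair of groups (0.0860) and among genes with a mean normalized count of at least 50 (0.0541). In SNU449-Axl- cells CCNB1 was at 9.95, 10.18 and 10.11 in control and at 9.58, 9.09 and 9.86 in Rego-resistant libraries, again all lower (-0.57 ± 0.22, adjusted p = 0.157). The effects in the backgrounds differed by -0.15 ± 0.31.

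CCNB2 (ENSG00000157456.8, chr15:59105126-59125045, plus strand), the second B-type cyclin and the first of the promoters printed above, was at 8.11, 8.60 and 7.79 in control and at 7.54, 6.63 and 7.50 in Rego-resistant SNU449-Axl- libraries. All Rego-resistant libraries were lower, and replicate 2 was lowest by far. CCNB2 fell by 0.94 ± 0.26 (adjusted p = 0.0479). The call was lost without any of 8 libraries, namely SNU449 control replicate 2, SNU449 Rego-resistant replicates 1 and 2, SNU449-Axl- control replicates 1 and 2 and all 3 SNU449-Axl- Rego-resistant replicates (adjusted p between 0.0538 and 0.352). The difference was -0.55 without Rego-resistant replicate 2. It was also lost in the table of the pair of groups (adjusted p = 0.0532) and among genes with a mean normalized count of at least 50 (adjusted p = 0.0555). In SNU449 cells the difference was -0.31 ± 0.26.

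PLK1 (ENSG00000166851.15, chr16:23677656-23690367, plus strand), a kinase needed for spindle assembly and the exit from mitosis, was at 9.27, 9.09 and 8.82 in control and at 8.26, 8.22 and 8.35 in Rego-resistant SNU449-Axl- libraries. The Rego-resistant libraries lay close together below all controls, and PLK1 fell by 0.79 ± 0.20 (adjusted p = 0.0301). The call was lost without SNU449-Axl- control replicate 1 or 2 or any of the 3 SNU449-Axl- Rego-resistant replicates (adjusted p between 0.0804 and 0.154). In SNU449 cells the difference was -0.27 ± 0.20. AURKA and AURKB, the Aurora kinases of the spindle poles and of the centromere, differed by -0.63 ± 0.20 and -0.55 ± 0.20 in SNU449-Axl- cells with no overlap of libraries (adjusted p = 0.0888 and 0.133). CDK1 differed by 0.02 ± 0.22 and -0.19 ± 0.22.

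The spindle checkpoint and its target, the APC/C ubiquitin ligase, held 3 of the 6 calls in SNU449-Axl- cells. BUB1 (ENSG00000169679.15, chr2:110637528-110678063, minus strand), a checkpoint kinase at the kinetochore, was at 7.44, 7.52 and 7.75 in control and at 6.88, 6.73 and 6.78 in Rego-resistant libraries. BUB1B (ENSG00000156970.13, chr15:40161023-40221123, plus strand), encoding the checkpoint protein BUBR1, was at 7.75, 8.39 and 8.14 in control and at 7.37, 7.13 and 7.26 in Rego-resistant libraries. CDC20 (ENSG00000117399.14, chr1:43358981-43363203, plus strand), the activator of the APC/C that the checkpoint restrains, was at 9.41, 9.54 and 9.29 in control and at 8.61, 8.30 and 8.73 in Rego-resistant libraries. In each of the 3 genes all Rego-resistant libraries were below all controls.

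BUB1 fell by 0.77 ± 0.19 (adjusted p = 0.0254), BUB1B by 0.84 ± 0.21 (adjusted p = 0.0276) and CDC20 by 0.86 ± 0.18 (adjusted p = 0.0112). The call of CDC20 was lost without SNU449-Axl- control replicate 2 (adjusted p = 0.0974) and without SNU449-Axl- Rego-resistant replicate 2 (adjusted p = 0.119). The calls of BUB1 and BUB1B were lost without SNU449-Axl- control replicate 2 or 3 or any SNU449-Axl- Rego-resistant replicate, with adjusted p between 0.0767 and 0.144 for BUB1 and between 0.0755 and 0.212 for BUB1B. UBE2C, the ubiquitin-conjugating enzyme of the APC/C, differed by -0.49 ± 0.22 (adjusted p = 0.224).

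In SNU449 cells these genes lay lower as well, by smaller amounts that did not pass the test. BUB1 was at 7.58, 7.52 and 7.70 in control and at 7.24, 7.38 and 6.91 in Rego-resistant libraries, with no overlap (-0.42 ± 0.19, adjusted p = 0.200). BUB1B differed by -0.45 ± 0.21 (adjusted p = 0.220) and CDC20 by -0.22 ± 0.18 (adjusted p = 0.553), also without overlap. The differences between the backgrounds in the Rego effect were 0.35 ± 0.27 for BUB1, 0.39 ± 0.30 for BUB1B and 0.65 ± 0.26 for CDC20, none of which was called. The falls of the checkpoint genes are therefore not shown to be particular to SNU449-Axl- cells.

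Centromere and spindle genes lay below 0 at 7 of 7 in SNU449 and 6 of 7 in SNU449-Axl- cells, with medians of -0.17 and -0.46 and no call. KIF11, the motor that separates spindle poles, had the largest difference of them in SNU449-Axl- cells at -0.59 ± 0.19 (adjusted p = 0.0783), and TPX2, which activates AURKA, followed at -0.55 ± 0.21.

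The classic proliferation markers did not move together. MKI67, encoding the antigen Ki-67, was at 10.43, 11.10 and 10.60 in control and at 10.97, 10.68 and 10.16 in Rego-resistant SNU449 libraries, which overlapped (-0.10 ± 0.26, adjusted p = 0.868). In SNU449-Axl- cells it was at 10.84, 10.997 and 11.65 in control and at 10.51, 9.97 and 10.34 in Rego-resistant libraries, all of them lower, with a difference of -0.89 ± 0.26 just short of the threshold (adjusted p = 0.0594). MKI67 was called lower there in the table of the pair of groups (limma, adjusted p = 0.0258). It was also called without the replicate block (adjusted p = 0.0313), a fit whose p-values are too small, as described above. TOP2A, the topoisomerase that untangles replicated DNA, differed by 0.02 ± 0.22 in SNU449 and by 0.03 ± 0.22 in SNU449-Axl- cells, with intervals of -0.44 to 0.48 and -0.42 to 0.49.

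In single libraries, many members lay high or low together. For each gene the replicate numbers have nearly the same mean over the 4 groups in the deposited values. A low library in 1 group therefore goes with higher libraries of the same number in others, and the extremes are linked. SNU449-Axl- Rego-resistant replicate 2 was the lowest library of its group for 43 of the 49 members. Replicate 2 was the highest of its group for 30 members in SNU449 control, 28 in SNU449-Axl- control and 4 in SNU449 Rego-resistant cells. SNU449 Rego-resistant replicate 1 was the highest of its group for 40 members, and SNU449 control replicate 1 the lowest of its group for 36. Averaged over the 49 members, each gene taken relative to its mean over the 12 libraries, the SNU449 control libraries were at -0.04, 0.31 and 0.15 and the Rego-resistant libraries at 0.17, -0.09 and -0.24, which overlap. In SNU449-Axl- cells the control libraries were at -0.05, 0.26 and 0.16 and the Rego-resistant libraries at -0.09, -0.48 and -0.06, with no overlap but with control replicate 1 close to Rego-resistant replicates 1 and 3. The 4 checkpoint and APC/C genes lay apart there, at 0.16, 0.43 and 0.26 in control and at -0.38, -0.62 and -0.37 in Rego-resistant libraries. Without SNU449-Axl- Rego-resistant replicate 2, or without SNU449-Axl- control replicate 2, 0 members were called in SNU449-Axl- cells, and without SNU449 Rego-resistant replicate 3, 0 were called in SNU449 cells.

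**Figure D3:**
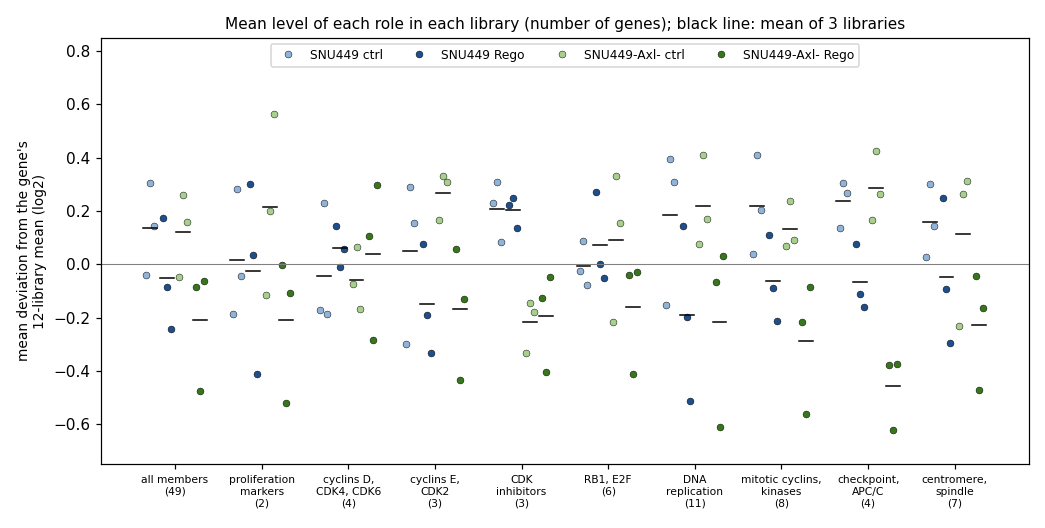
Mean deviation of the genes of each role from their own mean over 12 libraries (vertical axis, log2) for each role with its number of genes (horizontal axis). Points are libraries, coloured by group, and black lines are means of 3 libraries. The checkpoint and APC/C genes of Rego-resistant SNU449-Axl- cells lie between -0.62 and -0.37, below all other libraries, while most other roles overlap between groups.

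The genotypes were also compared at equal treatment, named the Axl effect below. Since each group is 1 cell population, these comparisons cannot tell an effect of Axl itself from a difference between populations. Each of these comparisons shares both of its groups with the Rego comparisons and is not independent of them. In control cells 2 of 49 members were called (4.08%), against 7.45% of all genes, and both were D-type cyclins, 1 higher where 4.03% of all genes were and 1 lower where 3.43% were. CCND1 was higher in SNU449-Axl- than in SNU449 control cells by 1.30 ± 0.36 (adjusted p = 0.0328), with no overlap of libraries. The call was lost without SNU449 control replicate 1 or 3 or any SNU449-Axl- control replicate (adjusted p between 0.0608 and 0.164). CCND3 was lower by 1.0 ± 0.22 (adjusted p = 0.00894), and this call was lost without SNU449-Axl- control replicate 3 (-0.68, adjusted p = 0.0625) and with centring on the spike-in RNAs (-0.80, adjusted p = 0.0513). CCNA2, the cyclin of S and G2 phase, was next at -0.69 ± 0.22 (adjusted p = 0.0727). It was called together with CDC25C without the replicate block, a fit whose p-values are too small.

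Between the Rego-resistant groups, 0 of 49 members were called by limma, against 4.37% of all genes (2.44% higher and 1.93% lower), while 8 members (16.3%) had an unadjusted p under 0.05, against 18.2% of all genes. These were CDKN1A, E2F3, MCM4, MCM7, CCNB2, CDC20, UBE2C and TPX2, of which MCM4 alone was higher in SNU449-Axl- cells (0.73 ± 0.26, adjusted p = 0.119). In the table of this pair of groups MCM4, TPX2 and UBE2C were called. The median difference of the members was -0.06 in control and -0.20 in Rego-resistant cells, and turned to 0.15 and 0.09 when libraries were centred on the spike-in RNAs, which moved every gene up by 0.20 and 0.29. The overall direction of these genes between genotypes hence depends on the scaling.

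Mean normalized counts per group were solved by least squares from the authors' means of the 6 pair tables and show the levels without variance stabilization or removal of the preparation date. They are authors' means with no SD. CCND1 was at 241.5 in SNU449 control, 557 in SNU449 Rego-resistant, 701 in SNU449-Axl- control and 990.1 in SNU449-Axl- Rego-resistant cells. CCND3 was at 347, 158, 193 and 282 in the same order. MCM6 was at 652, 294, 529 and 485, CCNB1 at 1148, 609, 1161 and 865, and CDC20 at 557, 424, 725 and 435. Ratios of Rego-resistant to control counts in SNU449-Axl- cells were 0.524 for MCM7, 0.543 for CCNB2, 0.605 for PLK1, 0.592 for BUB1 and 0.574 for BUB1B, and those in SNU449 cells were 2.31 for CCND1 and 0.454 for CCND3. Genes called on the log2 scale thus had the same direction in counts.

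Other genes of the cycle were read from lists of related genes, whose calls were not recomputed without single libraries. Of 46 S phase genes, 2 fell and none rose in SNU449 cells, with a median of -0.32. NASP, a histone chaperone, fell by 0.96 ± 0.28 (adjusted p = 0.0428). In SNU449-Axl- cells 1 of the 46 fell, CHAF1A, a chromatin assembly factor, by 1.03 ± 0.27 (adjusted p = 0.0354), with a median of -0.23. Of 52 G2/M genes, 4 fell in SNU449 cells, with a median of -0.29, and none in SNU449-Axl- cells, with a median of -0.24 and 11 genes (21.2%) at an unadjusted p under 0.05, against 18.6% of all genes. The largest falls in SNU449 cells were those of LBR, an inner nuclear membrane protein, by 1.01 ± 0.23 (adjusted p = 0.00952) and of KIF18A, a kinesin that aligns chromosomes, by 0.84 ± 0.22 (adjusted p = 0.0245). The shares that fell in SNU449 cells, 4.35% and 7.69%, stood against 3.5% of all genes called lower, and the 2.17% of S phase genes in SNU449-Axl- cells against 1.81%.

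The 13 DREAM and MuvB genes with values, which include FOXM1, MYBL2 and RBL1, held no call in either Rego comparison (limma). At an unadjusted p under 0.05 were 1 of them in SNU449 (7.69%) and 4 in SNU449-Axl- cells (30.8%), against 21.3% and 18.6% of all genes. The 28 other cyclins, CDKs and inhibitors held no call either, with 4 (14.3%) and 7 (25%) such genes. Between the genotypes in control cells, 3 of these 28 genes were called (10.7%, against 7.45% of all genes). CDK14, a kinase that acts with cyclin Y at the membrane, was higher in SNU449-Axl- cells by 0.95 ± 0.20 (adjusted p = 0.00657). It was weakly expressed, at a mean normalized count of 14.8. CDKN3, a CDK phosphatase, and CCNC, a cyclin of the Mediator complex, were lower by 0.81 ± 0.19 and 0.71 ± 0.21 (adjusted p = 0.0133 and 0.0498).

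Of 27 p53 target genes, 6 were called in SNU449 cells (22.2%, against 7.81% of all genes), 2 higher and 4 lower, so that the list did not move one way. In SNU449-Axl- cells 2 were called (7.41%, against 4.35%), 1 higher and 1 lower. GDF15, a stress-induced cytokine, was at 8.31, 7.85 and 8.09 in control and at 9.92, 10.66 and 10.87 in Rego-resistant libraries and rose by 2.40 ± 0.35 (adjusted p = 0.000242). GADD45A, a growth arrest gene, rose by 1.16 ± 0.33 (adjusted p = 0.0382). PLK2, a kinase of the centriole, was at 10.84, 10.84 and 10.68 in control and at 9.28, 9.44 and 9.38 in Rego-resistant libraries and fell by 1.42 ± 0.17 (adjusted p = 4.01e-05). CCNG1, encoding cyclin G1, fell by 0.95 ± 0.24 (adjusted p = 0.0217). CDKN1A, a p53 target among the members, was not called. In SNU449-Axl- cells FBXW7, which marks cyclin E and MYC for degradation, rose by 0.70 ± 0.19 (adjusted p = 0.0456) and AEN, a nuclease, fell by 0.98 ± 0.22 (adjusted p = 0.0156), and the Rego effect differed between the backgrounds for GDF15 (2.55 ± 0.49, adjusted p = 0.00424), PLK2 (-1.40 ± 0.25, adjusted p = 0.00207) and FBXW7 (-1.15 ± 0.27, adjusted p = 0.0157).

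**Figure D4:**
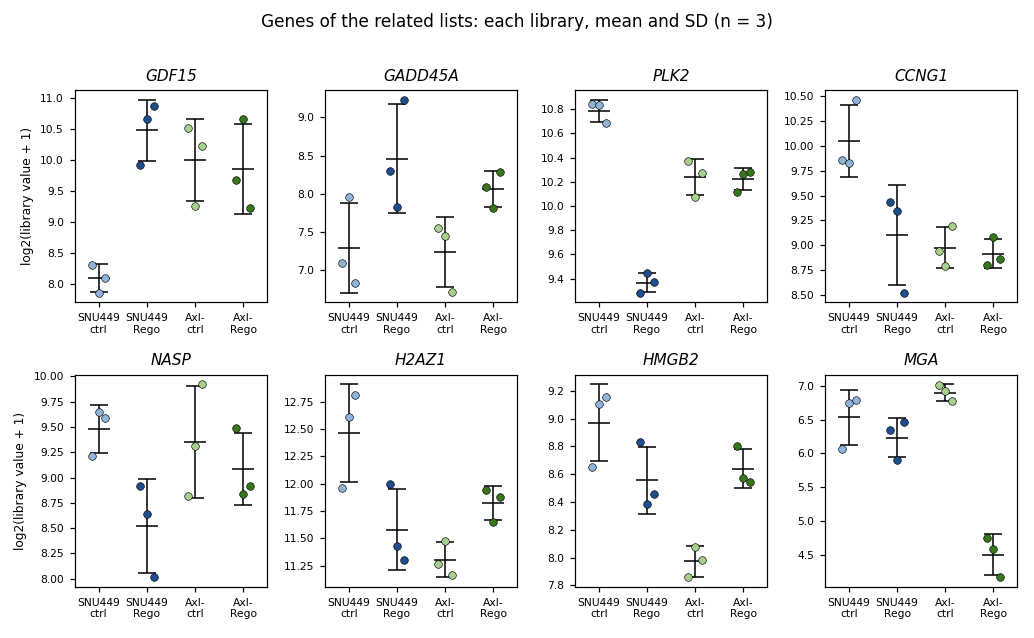
Log2 level (vertical axis, scaled per gene) of 8 genes of the related lists in the 4 groups (horizontal axis), with each library as a point and the mean and SD of 3 libraries in black. GDF15 is lowest and PLK2 highest in SNU449 control cells, and MGA is lowest in Rego-resistant SNU449-Axl- cells, at 4.17 to 4.75.

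Among 9 partners of MYC, a single gene was called in SNU449-Axl- cells (11.1%, against 4.35% of all genes). MGA, a MAX-binding repressor of MYC and E2F targets, was at 7.01, 6.92 and 6.77 in control and at 4.75, 4.58 and 4.17 in Rego-resistant libraries and fell by 2.40 ± 0.24 (adjusted p = 1.03e-05). Solved mean counts were 100.9 in SNU449-Axl- control and 6.23 in SNU449-Axl- Rego-resistant cells, against 72.0 and 44.0 in SNU449 cells, where MGA was not called. The interaction was 2.10 ± 0.33 (adjusted p = 0.000994). In the list of histone genes, of which 12 had values, 1 fell in SNU449 cells (8.33%, against 3.5% of all genes called lower), H2AZ1, by 0.88 ± 0.24 (adjusted p = 0.0259). H2AZ1 encodes a replication-independent variant, and no replication-dependent histone gene of the list was called there. How well libraries of 3′ ends capture the RNA of replication-dependent histone genes was not tested, so that the missing calls say little about them. Between the control groups H2AZ1 was lower in SNU449-Axl- cells by 1.16 ± 0.24 (adjusted p = 0.00494), as 1 of 12 (8.33%), against 3.43% of all genes. Of the 52 G2/M genes 3 were called there (5.77%, against 7.45% of all genes), in both directions. HMGB2, a chromatin protein of proliferating cells, and CENPU were lower by 1.0 ± 0.20 and 1.17 ± 0.24 (limma, adjusted p = 0.00441 and 0.00448). SMC4 was higher by 0.99 ± 0.24 (limma, adjusted p = 0.0174).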

How the data were processed

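RNA was sequenced in 12 libraries, 3 technical replicates in each of 4 groups, from 3′ ends (QuantSeq). Per the study's methods and the submitters' processing notes, reads were trimmed with cutadapt 4.0, aligned with STAR 2.5.3a to GRCh38 with GENCODE and spike-in sequences and counted per gene, and weakly expressed genes and duplicate entries were removed. The deposited library values are a score made by the authors, namely 2 raised to the variance-stabilized expression after removal of the preparation date with limma, rounded to whole numbers and made separately for each table. They are not counts, so that no count model was used and the depth of a library is unknown. Sums of the authors' mean normalized counts over a table lay between 4147580 and 4914890. The authors' mean normalized count, a signal over all libraries of a table with no SD, was used for levels only. Further columns deposited by the authors hold group averages and the results of their own tests (log2 fold changes, their errors, p-values and adjusted p-values) and were not used.

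Library values were taken as log2(value + 1) and fitted over all 15601 genes by linear models with moderated variances that follow the mean level (limma 3.58.1, R 4.3.3), with group and replicate number as terms, and p-values were adjusted by Benjamini-Hochberg at a threshold of 0.05. The fits were also run on simulated data, with errors drawn independently for each gene. Such data do not hold the joint shifts of members in single libraries described above, and no result given here rests on them. Replicate number stood for the preparation date of the authors' model, since the date of each library is not given in the sources used here. Over 8189 genes the deviations of 18 same-numbered pairs of libraries correlated at -0.542 to 0.0269 (median -0.399). The number means (median 0.000533) were nearly 0 beside library deviations (0.123). Means of the replicate numbers are thus already removed from the deposited values, and the block accounts for this in the estimate of the spread. The Rego effect was fitted in either background, the Axl effect at either treatment and the interaction between them. Members called in a comparison and a fixed set of well-known cycle genes were named, with at most 2 rises and 2 falls of each related list. Named beyond this rule, after their values were seen, were members close to a threshold or of a described role, and HMGB2, PLK2 and other list genes in comparisons of genotypes. A called gene of the related lists is not reported here. Members and lists were chosen with earlier results of these data known. Positions came from GENCODE on GRCh38 by gene identifier, and promoters from RefSeq. Figures were drawn with matplotlib 3.10.9 in Python 3.11.15.

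The alternatives were no block, the other table of 12 libraries, the tables of pairs of groups, a pseudocount of 0, a mean normalized count of at least 50, centring on the median of all genes or on 32 spike-in RNAs, and leaving out each library.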

Additional observations from a re-analysis of the deposited data

Results flagged for a closer look

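The Rego effect on CCND3, the gene of cyclin D3, differed between the backgrounds by -1.37 on the log2 scale (95% confidence interval -2.03 to -0.71, limma interaction, adjusted p = 0.0132). All 3 Rego-resistant libraries were below all control libraries in SNU449 cells and all 3 were above them in SNU449-Axl- cells. The difference was -1.14 (adjusted p = 0.0534) without SNU449-Axl- Rego-resistant replicate 3.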

How the results depend on the processing

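No called difference changed its direction under the alternatives run, whereas 8 of 37 differences of named genes did, none of them called. The TOP2A differences in SNU449 and SNU449-Axl- cells became -0.027 and -0.0078 and that of E2F1 in SNU449 cells -0.027 with centring on the median of all genes, and that of CCNE2 in SNU449-Axl- cells 0.046 with centring on spike-in RNAs. Leaving out each library gave -0.17 to 0.24 for TOP2A in SNU449 and -0.19 to 0.25 in SNU449-Axl- cells, -0.16 to 0.21 for E2F1, -0.35 to 0.19 for MKI67 and -0.10 to 0.26 for CDKN1B in SNU449 cells, and -0.20 to 0.88 for CCND1, -0.24 to 0.026 for CCNE2 and -0.12 to 0.30 for CDKN2C in SNU449-Axl- cells. The median of the members turned from -0.06 to 0.15 and from -0.20 to 0.09 for the Axl effect in control and Rego-resistant cells with centring on spike-in RNAs. The causes were not tested. Without the replicate number as a block, 2175 genes (1219 with it) were called for the Rego effect in SNU449, 1552 (678) in SNU449-Axl- cells, 2182 (1163) and 1503 (682) for the Axl effect in control and Rego-resistant cells and 1826 (916) for the interaction, and 10 members (6) were called for the Rego effect in SNU449-Axl- cells and 4 (2) and 1 (0) for the Axl effect. Since the means of the replicate numbers are already removed from the values, fits without the block understate the spread. Their p-values are too small, and the larger counts are not evidence of more differences.

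Among genes with a mean normalized count of at least 50, 746 genes and 2 members were called for the Rego effect in SNU449 cells and 450 genes for the Axl effect in Rego-resistant cells. With centring on spike-in RNAs, the members called were 2 and 0 for the Rego effect in SNU449 and SNU449-Axl- cells and 1 and 1 for the Axl effect in control and Rego-resistant cells, where 1799 genes were called, 1731 higher and 68 lower, against 381 and 301. In the tables of pairs of groups, 603 genes were called for the Rego effect in SNU449, 603 and 1160 for the Axl effect in control and Rego-resistant cells, with 3 members in the latter. Fewer genes were tested at the count minimum, and each pair table holds 6 libraries; otherwise the cause was not tested. The counts of members were the same under median centring, a pseudocount of 0 and the other table of 12 libraries.

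Leaving out each library gave 740 to 1299 genes and 0 to 4 members for the Rego effect in SNU449, 205 to 891 and 0 to 7 in SNU449-Axl- cells, 540 to 1275 and 0 to 2 for the Axl effect in control cells, 219 to 826 and 0 to 1 in Rego-resistant cells and 523 to 922 and 0 to 2 for the interaction. The unknown depth and 3 libraries per group limit what differences could be called.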
